A study of Mus musculus with 24 samples.

Results

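Integrins are the transmembrane receptors, each an α chain paired with a β chain, through which cells hold on to the extracellular matrix, and laminins are the α, β and γ chain trimers that form the core sheet of basement membranes. The listed genes for these chains were taken from the count table by matching its Ensembl identifiers to the chain symbols in GENCODE M1. All 35 listed genes were found among the 37991 genes of the table, 25 integrin genes (17 α and 8 β chains) and 10 laminin genes, and all 35 passed the filter on low counts that left 14918 genes. The study followed mammary tumor progression in the PyMT mouse, in which the mouse mammary tumor virus long terminal repeat drives the polyoma virus middle T antigen in mammary epithelium. PyMT females carried 1 copy of the transgene and were bred from MMTV-PyVT transgenic males and FVB females, and the controls were homozygous FVB females of the same ages. Total RNA of mammary tumors or glands was sequenced after ribosomal RNA depletion in 3 PyMT and 3 FVB mice at each of week 6 (hyperplasia in PyMT), week 8 (adenoma/MIN), week 10 (early carcinoma) and week 12 (late carcinoma), 24 samples in 8 groups. The promoter acts in the epithelium, whereas the RNA came from whole tissue with every cell type in it.

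In the mammary gland the basement membrane separates the epithelium from the stroma. Myoepithelial cells lie on it, and they and the luminal cells bind it through laminin-binding integrins, α3β1, α6β1 and α6β4, the last of which anchors hemidesmosomes. Fat cells, vessels, nerve and muscle fibers have basement membranes of their own. Other integrins bind collagens, ligands with the Arg-Gly-Asp (RGD) motif such as fibronectin, vitronectin and osteopontin, or, on leukocytes, ligands carried by other cells.

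The samples held from 6969375 to 13516601 counts. In 13 of the 24 libraries (6 PyMT and 7 FVB) the number of genes at each count had a peak at a count between 8 and 25 (called a repeating count below), and its origin is not known. A fit over all weeks was also run on the 11 other libraries, but the effect on the low counts given here was not tested directly. Those 11 hold no PyMT sample of week 6 and no FVB sample of week 10. With week as a factor, that fit therefore compares the genotypes at weeks 8 and 12 alone. FVB week 10 replicate 3 and PyMT week 8 replicate 2 had the largest shares of 3799 mid-level genes at 0, 4.40% and 2.87%. The tissue was checked against markers of 10 cell types, given as summed normalized counts (counts over DESeq2's size factors). Luminal keratins and claudins were present in every sample, with sums between 19257 and 37580 in PyMT libraries and between 4019 and 18933 in FVB libraries, and 6 of their 8 genes were called higher in PyMT over all weeks. The sums were lower in PyMT for adipocytes (1314 to 16852 against 48613 to 132307), endothelium (829 to 2271 against 5870 to 9917), fibroblasts (27191 to 49838 against 54978 to 215645) and myoepithelium (1295 to 5968 against 4538 to 16192), of which 8 of 8, 8 of 8, 7 of 7 and 5 of 8 genes were called lower. Skeletal muscle markers ran from 139 to 95432 in PyMT and from 209 to 1532180 in FVB, and 9 of 10 were called lower. They lay above every PyMT sample in 4 FVB libraries, week 6 replicates 1 and 2, week 10 replicate 3 and week 12 replicate 1. None of 8 macrophage genes was called, and the 10 lymphocyte genes summed to at most 106 in PyMT and 117 in FVB. Of 5 Schwann cell genes 1 was called higher and 3 lower, with sums of 1501 to 2471 in PyMT and 678 to 2083 in FVB.

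**Figure D1:**
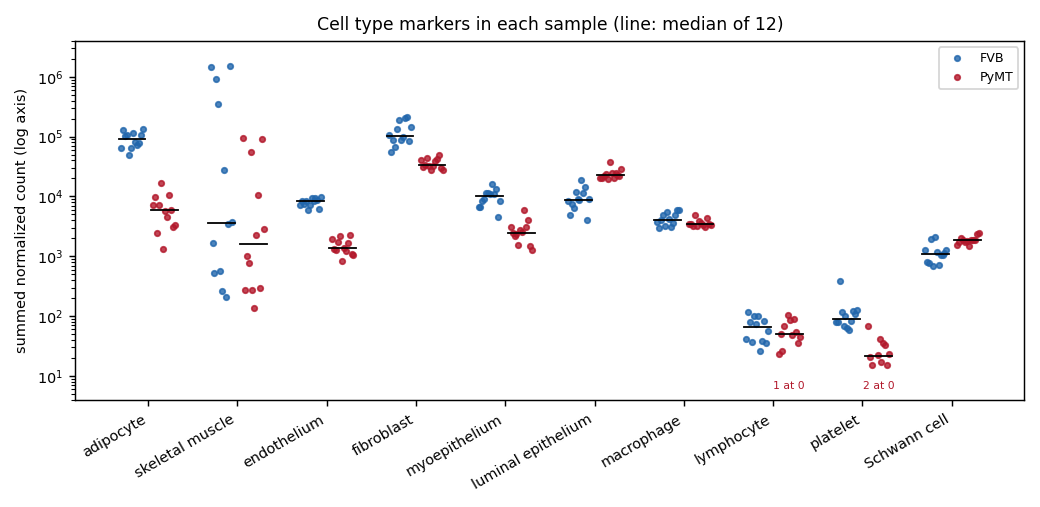
Summed normalized counts of the markers of each of 10 cell types in every sample (points, 12 FVB in blue and 12 PyMT in red, log axis), with the median of 12 as a black line and samples at 0 written below. The adipocyte sums of FVB (median 92608) lay above all those of PyMT (median 5836), the luminal sums were higher in PyMT, and the muscle sums spread over several orders of magnitude in both genotypes.

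Most laminin chains were lower in PyMT mice than in FVB mice, and integrin chains moved in both directions. Over all weeks, 19 of the 35 genes were called, 5 higher and 14 lower, where a call needed an adjusted p under 0.05 in edgeR's quasi-likelihood test, adjusted by the method of Benjamini and Hochberg over all genes tested, and more than a 2-fold change. Of all genes tested 8.51% were called higher and 17.2% lower. The median log2 fold change (PyMT over FVB) of the 35 genes was -0.66, beside -0.03 for all genes tested. At any fold, 8 of them were higher and 17 lower at an adjusted p under 0.05, as were 23.6% and 27.5% of all genes. Of the 10 laminin chains 7 were called lower and 1 higher (median -1.60), of the 17 integrin α chains 6 lower and 2 higher (median -0.64), and of the 8 integrin β chains 1 lower and 2 higher (median 0.39). The 12 PyMT values and the 12 FVB values did not overlap for 12 of the genes. The higher were Itgb4 and Lamb3 and the lower Itga1, Itga7, Itga11, Lama2, Lama3, Lama4, Lamb1, Lamb2, Lamc1 and Lamc3. Over all genes 4.67% and 7.22% did not overlap in these directions. In whole tissue, fewer cells of a type and less RNA per cell cannot be told apart. Scaling by library size alone, in place of TMM (edgeR's scaling for composition), raised the median of all genes by 0.29 and gave 7 higher and 12 lower of the 35, with 13.7% of all genes then higher and 13.4% lower. Leaving out the 4 FVB libraries high in muscle markers gave 6 higher and 14 lower, with 8.4% of all genes then higher and 14.86% lower.

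**Figure D2:**
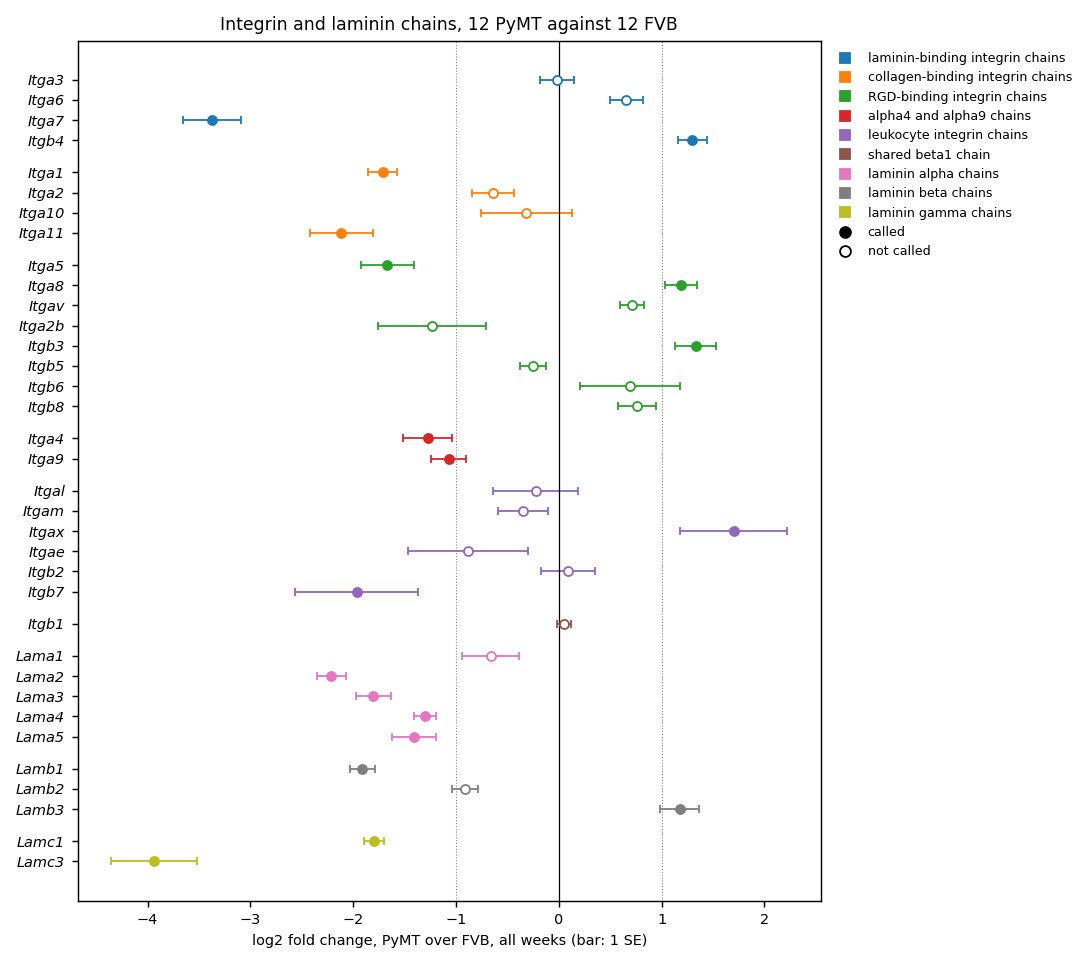
Log2 fold change of each of the 35 genes, 12 PyMT over 12 FVB samples with week as a factor (point), with 1 standard error on each side (bar), grouped and colored by class. Filled points were called, and the dotted lines mark a 2-fold change. Most laminin chains lie left of the lower line while Lamb3, Itgb4, Itgb3, Itga8 and Itgax lie right of the upper line.

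The γ1 chain, the γ chain of most laminins, fell in PyMT tissue at every week. Lamc1 had a normalized count of 1499 to 2414 in the 12 PyMT samples (median 1851) and 5417 to 8171 in the 12 FVB samples (median 6422). The lowest FVB sample was above the highest PyMT sample, and the fall over all weeks was 3.49-fold (log2 fold change -1.80 ± 0.10 SE, adjusted p = 1.3e-12, edgeR). The γ3 chain changed more. Lamc3 (chr2:31742811-31802059, mm9, + strand) had 0 to 82.8 normalized counts in PyMT (median 37.1) and 322 to 1025 in FVB (median 499). In single samples, PyMT week 6 had 82.8, 20.9 and 66.4, week 8 had 52.5, 47.8 and 43.5, week 10 had 9.79, 0 and 30.7, and week 12 had 75.05, 6.41 and 12.0. All 12 lay below the lowest FVB sample, and the log2 fold change was -3.94 ± 0.41 SE (adjusted p = 2.7e-08, edgeR).

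The laminin α chains, which carry the globular domains that integrins bind, were all lower in PyMT mice at an adjusted p under 0.05, and 4 of the 5 were called. Lama2, the α chain of muscle, nerve and mesenchymal basement membranes, changed most (389 to 1211 against 3164 to 6336, log2 fold change -2.21 ± 0.14 SE, adjusted p = 1.4e-11, edgeR). Lama3, the α chain of epithelial laminin-332, had a median of 296 in PyMT and 1014 in FVB (-1.80 ± 0.17 SE). For Lama4, a chain of vessel and fat basement membranes, the medians were 1456 and 3648 (-1.30 ± 0.11 SE). Those 3 chains did not overlap between the genotypes. Lama5, found in most mature epithelial and vessel basement membranes, was called as well (1255 against 2975, -1.41 ± 0.21 SE), but its samples overlapped, as FVB week 10 replicate 3 read 1041 and FVB week 12 replicate 2 read 8444. Lama1, the chain of embryonic and some epithelial basement membranes, missed the 2-fold limit (508 against 944, -0.66 ± 0.28 SE, adjusted p = 0.0496, edgeR). It read 147 to 498 in the 3 FVB libraries highest in muscle markers, and without the 4 muscle-rich libraries its log2 fold change was -0.90 (adjusted p = 0.0015, edgeR). Lama1 did not pass with library size scaling (adjusted p = 0.23), with the replicate number as a block (0.20) or in the 11 libraries without a repeating count (0.54, all edgeR). Adipocyte, endothelial, fibroblast and myoepithelial markers were lower in the same PyMT samples, and their part in the fall of the laminin α and γ chains was not tested.

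The 3 β chains did not move together. Lamb1 (chr12:31950099-32014509, mm9, + strand), the β chain of laminin-111 and most stromal laminins, ran from 832 to 1622 in PyMT (median 1162) and from 3355 to 5786 in FVB (median 4372). It fell 3.76-fold (log2 fold change -1.91 ± 0.12 SE, adjusted p = 1.4e-11, edgeR). Lamb2, the β chain of synaptic, kidney and vessel laminins, was lower by less than 2-fold (784 to 1633 against 1817 to 3240, -0.91 ± 0.13 SE, adjusted p = 1.8e-06, edgeR). In the 11 libraries without a repeating count it was called (-1.01, adjusted p = 0.0041). Lamb3 (chr1:195128151-195170072, mm9, + strand), the β chain specific to laminin-332, was higher instead. Its samples ran from 785 to 1205 in PyMT (median 910) and from 97.0 to 713 in FVB (median 405), with no overlap and a log2 fold change of 1.17 ± 0.19 SE (adjusted p = 1.2e-05, edgeR). FVB week 10 replicate 3, the library with the most genes at 0, gave the 97.0. In those 11 libraries the log2 fold change of Lamb3 was 0.98, just under the 2-fold limit (adjusted p = 0.0021). Lamb3 rose and Lama3, whose chain joins it in laminin-332, fell in the same samples.

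Levels per kilobase set genes side by side by the length of all annotated exons of a gene (9917 bases for Lamb1, 4365 for Lamb3). Transcripts present in the tissue may be shorter, so shares and orders between genes are approximate. Per kilobase, Lamb3 made up a median of 36.8% of the summed level of the 3 β genes in PyMT mice (33.8 to 46.2%). In FVB mice it made up 10.1% (2.63 to 17.6%). Lamb1 had 22.4% in PyMT (12.9 to 33.6%) and 46.2% in FVB (39.8 to 55.2%). The ranges of Lamb1 and Lamb3 did not overlap, whereas Lamb2 held 42.4% and 42.6%. Among the 5 α genes the shares overlapped for every chain. Lama2 had a median share of 20.1% in PyMT and 30.8% in FVB, Lama4 31.5% and 25.5%, Lama5 26.0% and 23.2%, Lama1 13.3% and 8.0%, and Lama3 7.1% and 8.6%.

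**Figure D3:**
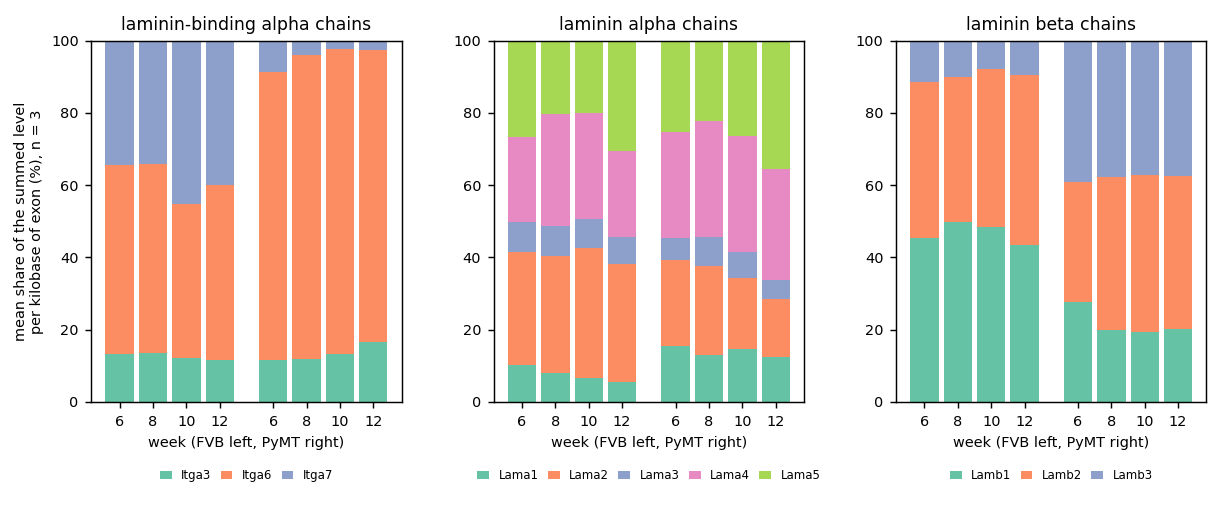
Mean share of each gene in the summed level per kilobase of exon (y axis, %, n = 3 samples a bar) of the 3 laminin-binding integrin α genes, the 5 laminin α genes and the 3 laminin β genes, by week, FVB on the left and PyMT on the right of each panel. Itga7 is a broad band in FVB and a narrow one in PyMT (median 38.7% and 3.0%), and Lamb3 is the reverse (10.1% and 36.8%).

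The stretches just upstream of these 3 genes are shown because the β genes are the laminin genes that parted ways. They are RefSeq promoter windows (table build GRCm38.p6, 23 of the 35 genes matched), placed on mm9 by exact match and ended before the first GENCODE M1 exon. Capitals mark the letters GGGCGG of a GC box, TGANTCA of an AP-1 site, TATAAA of a TATA box and CCAAT of a CAAT box, each searched on both strands.
Lamb1, chr12:31949908-31950098, + strand: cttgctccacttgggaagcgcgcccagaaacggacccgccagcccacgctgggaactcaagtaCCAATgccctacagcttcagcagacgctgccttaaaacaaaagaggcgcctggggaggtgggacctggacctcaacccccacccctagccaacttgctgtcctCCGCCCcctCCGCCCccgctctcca
Lamb2, chr9:108381943-108382192, + strand: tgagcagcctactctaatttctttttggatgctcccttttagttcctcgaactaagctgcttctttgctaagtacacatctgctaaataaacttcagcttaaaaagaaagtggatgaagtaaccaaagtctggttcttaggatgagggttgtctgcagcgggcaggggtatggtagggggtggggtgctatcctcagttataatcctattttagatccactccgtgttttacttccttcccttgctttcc
Lamb3, chr1:195127938-195128150, + strand: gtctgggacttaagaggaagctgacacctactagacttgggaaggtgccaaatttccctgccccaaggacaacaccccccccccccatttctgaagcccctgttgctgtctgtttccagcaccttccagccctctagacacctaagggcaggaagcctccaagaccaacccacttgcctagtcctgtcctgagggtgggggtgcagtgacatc
Lamb1 held 2 GC boxes and 1 CAAT box, and neither Lamb2 nor Lamb3 held any of the 4 motifs in these letters. Over the 250 bases before the start, 32.7% of all 32851 windows of the table held a GC box, 6.75% an AP-1 site, 12.4% a TATA box and 33.8% a CAAT box. Of the 26 windows of the 23 matched integrin and laminin genes, 9, 1, 0 and 4 held them.

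The laminin receptors changed in both directions. Itga7 (chr10:128370869-128395333, mm9, + strand), the α chain of the α7β1 laminin receptor of muscle, nerve and vessel walls, fell 10.3-fold (log2 fold change -3.37 ± 0.28 SE, adjusted p = 6.1e-10, edgeR). Its 3 PyMT values were 96.2, 312 and 207 at week 6, 99.2, 32.8 and 158 at week 8, 51.6, 58.7 and 55.4 at week 10, and 87.4, 58.8 and 61.0 at week 12. Those of FVB were 1048, 575 and 1105, then 918, 595 and 1174, then 904, 1282 and 1048, then 1180, 871 and 1198. Every FVB sample was above every PyMT sample. Without the 4 muscle-rich libraries its log2 fold change was -3.52. Endothelial (829 to 2271 against 5870 to 9917), fibroblast, myoepithelial and muscle markers were lower in PyMT as well, and their part in the Itga7 values was not tested.

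Itgb4 (chr11:115836023-115869726, mm9, + strand), which pairs with α6 alone to form the hemidesmosome receptor, was higher in PyMT mice. PyMT samples had 1370, 1272 and 1650 at week 6, 1697, 1752 and 1807 at week 8, 1749, 1389 and 1790 at week 10, and 1415, 1546 and 2366 at week 12. FVB samples had 614, 783 and 725, then 583, 779 and 957, then 710, 700 and 300.5, then 543, 929 and 533. The lowest PyMT sample was above the highest FVB sample, and the log2 fold change over all weeks was 1.30 ± 0.14 SE (adjusted p = 5.5e-08, edgeR). Itga6, its partner, was higher by less than 2-fold (3391 to 5038 against 964 to 3835, 0.66 ± 0.16 SE, adjusted p = 0.0015, edgeR). The 3 FVB libraries highest in muscle markers read 964, 1787 and 2321, where the other 9 read 2140 to 3835, and without the 4 libraries the difference was 0.52. Itga3, the α chain of the other epithelial laminin receptor, had medians of 461 and 467 (log2 fold change -0.02 ± 0.17 SE, adjusted p = 0.93, edgeR), and its sign turned under several settings.

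Among the 3 laminin-binding α genes per kilobase of exon, Itga6 had a median share of 83.4% in PyMT (75.2 to 89.1%) and 48.4% in FVB (27.5 to 63.8%), and Itga7 of 3.0% and 38.7%. The share of Itga3 was 12.9% and 12.5%. The ratio of Itgb4 to Itga6 per kilobase was 0.48 in PyMT (0.38 to 0.66) and 0.30 in FVB (0.24 to 0.44). Luminal epithelial markers were higher and myoepithelial markers lower in the same PyMT samples, and their part in the Itgb4, Lamb3 and Lama3 values was not tested.

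**Figure D4:**
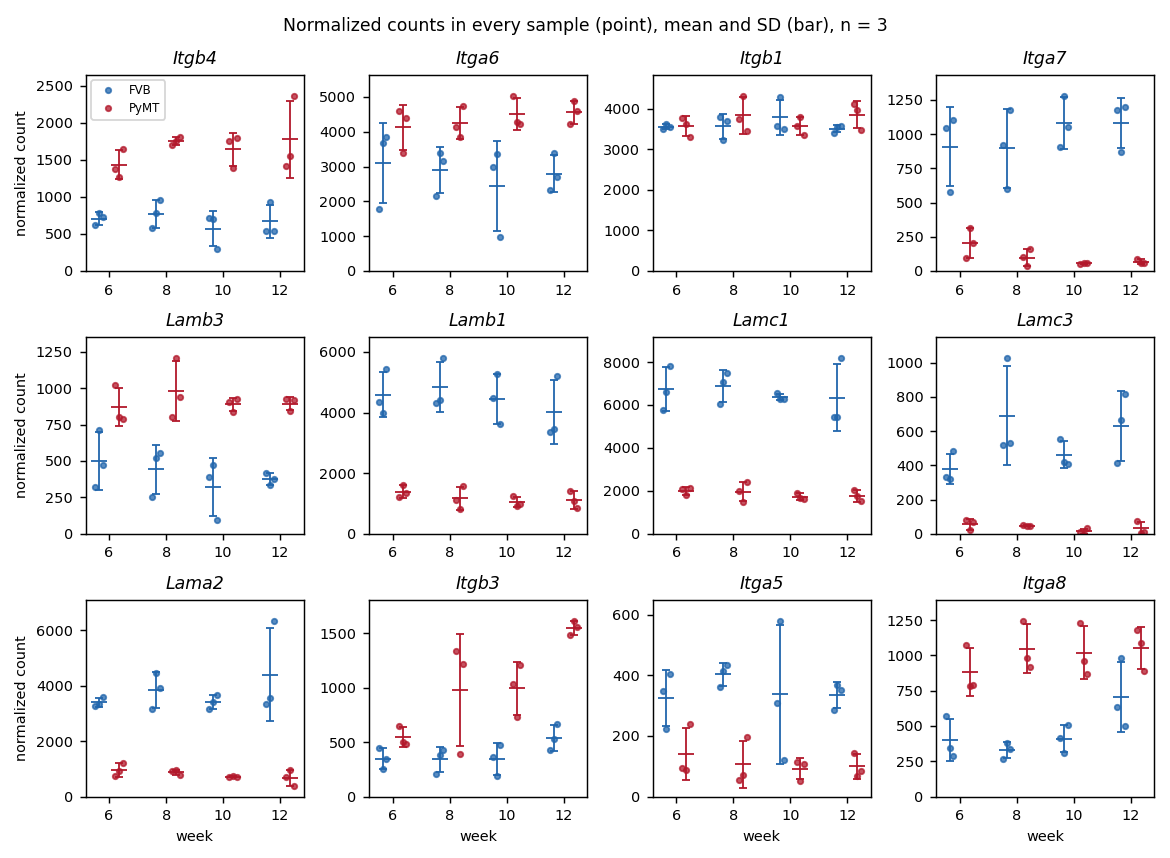
Normalized counts (y axes) of 12 of the genes in each of the 24 samples by week (x axes), FVB in blue and PyMT in red, with the mean and the SD of 3 samples as bars. Itgb4 and Lamb3 lie higher in PyMT and Itga7, Lamb1, Lamc1, Lamc3 and Lama2 lower without overlap, while the Itgb1 values of the genotypes lie on each other (medians 3694 and 3564).

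Itgb1, the β chain shared by most of the α chains here, had the highest level per kilobase of all 35 genes in both genotypes, with medians of 905 in PyMT and 873 in FVB. Its normalized counts ran from 3311 to 4329 in PyMT and from 3227 to 4298 in FVB. The log2 fold change was 0.05 ± 0.07 SE (adjusted p = 0.53, edgeR). With library size scaling it was 0.34 and passed the limit on p (adjusted p = 0.0046, edgeR), under 2-fold. Of that 0.34, 0.29 is the shift of all genes. Behind Itgb1, the order of levels per kilobase differed between the genotypes. In FVB the next were Lamc1 (776), Lamb1 (441), Lamb2 (403), Lama2 (357) and Itga6 (341), and in PyMT they were Itga6 (481), Itgb5 (273), Itgb4 (239), Itgav (232), Lamb2 (229) and Lamc1 (224). The neighbors from Itgb5 to Lamc1 in PyMT overlapped one another over their samples, and so did those from Lamb1 to Itga6 in FVB.

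Of the 4 collagen receptors' α chains, 2 fell. Itga1, on muscle, vessel and stromal cells, ran from 171 to 437 in PyMT and from 644 to 1170 in FVB (log2 fold change -1.71 ± 0.14 SE, adjusted p = 4.4e-10, edgeR). Itga11, a fibroblast receptor for fibrillar collagen, ran from 10.8 to 84.5 against 98.7 to 430 (-2.11 ± 0.31 SE, adjusted p = 3.3e-06, edgeR). Neither overlapped between the genotypes, and the 7 fibroblast markers were lower in the same samples. Itga2, the epithelial and platelet collagen receptor, missed the 2-fold limit (median 156 against 217, -0.64 ± 0.21 SE, adjusted p = 0.012, edgeR). Its adjusted p was 0.18 with library size scaling, 0.50 in the 11 libraries without a repeating count and 0.027 with the replicate number as a block (all edgeR). Itga10, a cartilage receptor, was low in both genotypes (medians 34.2 and 51.7), and did not pass the test (-0.31 ± 0.44 SE, adjusted p = 0.58, edgeR), and its counts are uncertain.

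The receptors for RGD ligands also split. Itga5, the fibronectin receptor's α chain, had 52.4 to 238 normalized counts in PyMT and 122 to 579 in FVB. Its fall was 3.17-fold (log2 fold change -1.67 ± 0.26 SE, adjusted p = 9.5e-06, edgeR). Itga8, which binds nephronectin and other RGD ligands, was higher in PyMT with a range of 781 to 1242 against 269 to 982 (1.19 ± 0.15 SE, adjusted p = 6.1e-07, edgeR). Its FVB samples of week 12 read 635, 982 and 499, and the other 9 read at most 573. Itgb3, the β chain of the αvβ3 receptor, rose as well (391 to 1613 against 189 to 669, 1.33 ± 0.20 SE, adjusted p = 5.1e-06, edgeR). Itgav, the α chain it joins, was higher by less than 2-fold (2018 to 3359 against 829 to 2454, 0.72 ± 0.12 SE, adjusted p = 1.9e-05, edgeR), and so was Itgb8, an activator of latent TGF-β with αv (median 711 against 434, 0.76 ± 0.18 SE, adjusted p = 0.0013). Itgb8 was past the 2-fold limit with library size scaling (1.01) and in the 11 libraries without a repeating count (1.36, adjusted p = 0.0019).

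Itgb5 and Itgb6, the other β partners of αv, did not pass the test. Itgb5 had medians of 918 and 1037 (-0.25 ± 0.13 SE, adjusted p = 0.10, edgeR), and its sign turned with library size scaling (0.042). Itgb6, an epithelial chain, had a median of 158 in PyMT and 67.9 in FVB with a log2 fold change of 0.69 ± 0.49 SE (adjusted p = 0.25, edgeR). This value turned on the FVB libraries high in muscle markers. Those 4 libraries read 333, 114, 322 and 307 and the other 8 read 3.79 to 70.5, and without the 4 the log2 fold change was 2.00 (adjusted p = 0.00013). With library size scaling it was 1.11 (adjusted p = 0.036). Itga2b, the platelet chain, was at 0 in PyMT week 6 replicate 2 and week 8 replicate 2 and had medians of 38.3 and 79.0. Its log2 fold change of -1.23 ± 0.53 SE just missed the limit on p (adjusted p = 0.054, edgeR), and it was called in 9 alternatives, 5 of them leaving out 1 library (PyMT week 6 replicate 2, PyMT week 8 replicate 2, FVB week 10 replicate 3, PyMT week 12 replicate 1 or FVB week 12 replicate 1, adjusted p of 0.040 to 0.048). Platelet markers summed to a median of 21.7 in PyMT and 91.3 in FVB. Among the 4 non-β1 partners of αv per kilobase, Itgb3 had a median share of 32.0% in PyMT and 16.1% in FVB, and Itgb5 of 51.0% and 71.9%.

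Both chains of the α4 and α9 class, receptors for VCAM-1, fibronectin and tenascin, fell. Itga4 ran from 14.8 to 115 in PyMT and from 101 to 291 in FVB (-1.28 ± 0.24 SE, adjusted p = 9.6e-05, edgeR), and Itga9 from 57.2 to 172 and from 161 to 327 (-1.07 ± 0.17 SE, adjusted p = 8.3e-06, edgeR). Without PyMT week 8 replicate 2, Itga9 was at -0.97 and so under the 2-fold limit, and with library size scaling Itga4 (-0.99) and Itga9 (-0.80) both were. Of the 6 leukocyte chains, Itgax, the CD11c chain of dendritic cells and some macrophages, rose and Itgb7, a lymphocyte homing chain, fell. Itgax had 36.5 to 249 normalized counts in PyMT and 0 to 129 in FVB (1.70 ± 0.52 SE, adjusted p = 0.0083, edgeR). In the 11 libraries without a repeating count it did not pass (1.10, adjusted p = 0.097). Macrophage markers summed to 3068 to 4873 in PyMT and 2960 to 6004 in FVB. Itgb7 was low everywhere, 0 to 28.8 in PyMT and 11.0 to 135 in FVB (-1.97 ± 0.60 SE, adjusted p = 0.0083, edgeR). Itgal, Itgam, Itgae and Itgb2, chains of lymphocytes and myeloid cells, had log2 fold changes of -0.23, -0.35, -0.88 and 0.09 and adjusted p of 0.22 to 0.80, and the sign of Itgal turned with library size scaling (0.056).

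At each week alone fewer genes were called. At week 6, 2 of the 35 genes were called higher and 10 lower (3.58% and 6.46% of all genes), and their median log2 fold change was -1.07. At week 8 the counts were 2 and 9 (3.57% and 6.37%), at week 10 they were 3 and 9 (4.83% and 9.09%), and at week 12 they were 4 and 14 (7.75% and 13.0%), with medians of -0.65, -0.56 and -0.62. Scaled by library size alone, week 12 had 7 higher and 11 lower, and of all genes tested 13.8% were then higher and 10.2% lower. In all 4 weeks 9 genes were called, Itgb4 higher and Itga1, Itga7, Lama2, Lama3, Lama4, Lamb1, Lamc1 and Lamc3 lower, as were 1.58% of all genes tested higher and 3.58% lower. The log2 fold changes at weeks 6, 8, 10 and 12 were 1.01, 1.19, 1.57 and 1.46 for Itgb4, -2.16, -3.17, -4.23 and -3.92 for Itga7, -1.84, -2.12, -2.20 and -2.65 for Lama2, and -2.73, -3.83, -4.99 and -4.30 for Lamc3. A further 11 genes were called in 1 to 3 weeks and 15 in none, and of all genes tested 20.7% and 74.1%. Lamb3 was called at week 12 only (1.29, adjusted p = 0.00089), with 0.79, 1.16 and 1.51 before it. Itgb3 was called at weeks 10 and 12 (1.59 and 1.57), and Itga8 at weeks 6, 8 and 10 (1.13, 1.68 and 1.37) but not at week 12 (0.62). Itga5, Itga4, Itga9 and Itgb7 were called lower and Itgb8 higher at week 12 alone. A call at one week and not at another does not show that the weeks differ.

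**Figure D5:**
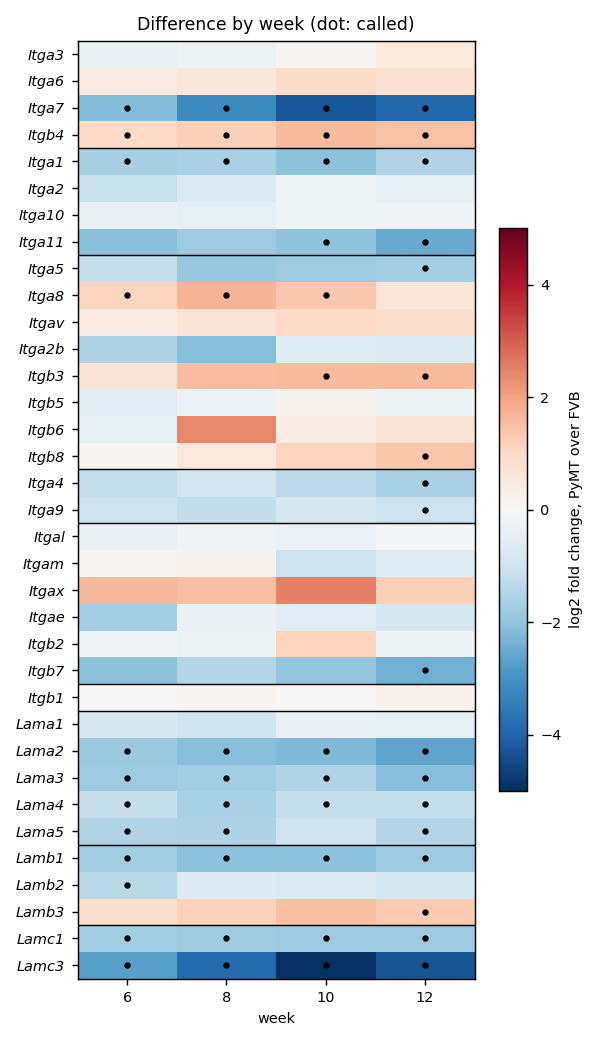
Log2 fold change of PyMT over FVB (color, scale from -5 to 5) of the 35 genes (rows, classes parted by lines) at each week (columns), with a dot where the gene was called. Itga7 and Lamc3 are the darkest blue rows, from -2.16 and -2.73 at week 6, and Itgb4 is red with a dot in every column.

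Within a week, calls rested on 3 against 3 samples. Lama2, Lamb1 and Lamc1 were called at all 4 weeks whichever library was left out. The other 6 genes called at every week each lost a call without 1 library. Itga7 lost it without PyMT week 6 replicate 3 (adjusted p = 0.070) or PyMT week 8 replicate 1 (0.066), Itga1 without PyMT week 8 replicate 1 (0.053), Lamc3 without PyMT week 10 replicate 1 (0.063), and Lama4 without PyMT week 6 replicate 3 (0.071). With library size scaling Lama4 lost it at weeks 6 (-0.88, adjusted p = 0.060), 10 (-0.90, 0.083) and 12 (-0.88, under 2-fold), and Lama3 at week 10 (0.073). Lama3 lost it without PyMT week 8 replicate 1 (0.075), FVB week 8 replicate 2 (0.066) or 3 (0.054), or PyMT week 10 replicate 3 (0.052). Itgb4 lost it at week 6 without FVB replicate 1 or PyMT replicate 3 (log2 fold changes of 0.94 and 0.93), at week 8 without PyMT replicate 1 or 3 or FVB replicate 2 (adjusted p of 0.052 to 0.062), and at week 10 without PyMT replicate 1 or 3 (0.069 and 0.063). Of the genes called at some weeks, Itga8 at week 6 lost its call without PyMT replicate 1 or 3 or FVB replicate 2 or 3 (0.076 to 0.14), and Itgb3 at week 10 without PyMT replicate 1 or 3 or FVB replicate 1 (0.062 to 0.084). At week 12, Itgb8 lost it without PyMT replicate 2 (0.055) or FVB replicate 3 (0.057), Itga9 without PyMT replicate 1 or 3 or FVB replicate 3 (0.050 to 0.097), and Itgb7 without FVB replicate 1 or 3 or PyMT replicate 3 (0.069 to 0.075). Lama5 lost it at week 6 without PyMT replicate 1 or 2 or FVB replicate 3 (0.051 to 0.11), at week 8 without PyMT replicate 1 or 2 (0.092 and 0.062), and at week 12 in 5 of 6 cases, all but that without FVB replicate 1 (0.054 to 0.13, with a log2 fold change of -0.92 without FVB replicate 2). Itga11 at week 10 lost it in 5 of 6 cases, all but that without FVB replicate 1 (0.064 to 0.12), and Lamb2 at week 6 without PyMT replicate 1 (0.068). With library size scaling, Itga11 at week 10 (0.069) and Itga9 (0.10) and Lama5 (0.075) at week 12 did not pass. With the replicate number as a block, Itga11 at week 10 (0.078) and Itga9 (0.057), Itgb7 (0.059) and Lama5 (0.061) at week 12 did not pass. Without PyMT week 8 replicate 1 the count of genes called lower at week 8 was 5. The share of all genes called in that fit is not given here, so the fall may not be particular to these genes. Without FVB week 10 replicate 3 the count called higher at week 10 was 5, where 6.42% of all genes tested were called higher.

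No change of the PyMT against FVB difference with time was called for these genes, from week 6 to 12 or across the step from week 8 to 10 at which carcinoma appears. In edgeR's quasi-likelihood test 0 of 35 passed in either contrast, as did 0.0% and 0.0067% of all genes, and DESeq2 and edgeR's likelihood ratio test also called 0. At an unadjusted p under 0.05 there were 3 from week 6 to 12, where 4.63% of all genes passed. They were Itga7 (change of -1.78 ± 0.60 SE), Itgb8 (1.23 ± 0.46 SE) and Lama2 (-0.81 ± 0.38 SE), and from week 8 to 10 there were 0 (3.57% of all genes).

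Within PyMT mice, week 12 against week 6 likewise gave 0 called genes by edgeR's quasi-likelihood test, of the 35 and of all genes (0.0%). At an unadjusted p under 0.05 there were 4 of the 35 (6.73% of all genes), Itgb3 (log2 fold change 1.52 ± 0.38 SE), Itga7 (-1.56 ± 0.44 SE), Itgb5 (0.63 ± 0.25 SE) and Itgav (0.56 ± 0.24 SE). DESeq2 called Itgb3 (1.51, adjusted p = 0.023) and Itga7 (-1.57, adjusted p = 0.048), and edgeR's likelihood ratio test called Itgb3 (adjusted p = 0.032). The share of all genes that these 2 tests called is not given here. Their calls therefore do not show a change with time that is particular to Itgb3 or Itga7. Itgb3 had 652, 504 and 483 normalized counts in PyMT at week 6, 1339, 391 and 1218 at week 8, 1037, 733 and 1213 at week 10, and 1484, 1613 and 1561 at week 12. The samples of weeks 6 and 12 did not overlap, while those of week 8 spanned nearly the whole range. In FVB mice, week 12 against week 6 gave 0 called genes in all 3 tests, and 1 of the 35 had an unadjusted p under 0.05 (4.19% of all genes), Itga8 (0.78 ± 0.27 SE).

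Adaptors, partners and ligands of these chains were tested in the same fit. Their counts stand beside 8.51% higher and 17.2% lower over all genes tested and a median log2 fold change of -0.03. The 24 genes listed as adhesion adaptors include proteins that tie integrin tails to actin and keratin. Of the 24, 1 was called higher over all weeks and 5 lower (median -0.58), and that count lower lies near the share over all genes. The higher was Nedd9, a Cas family scaffold (1.22 ± 0.16 SE), and the 3 lower with the largest change were Lims2 (-3.66 ± 0.51 SE), Tgfb1i1 (-2.83 ± 0.23 SE) and Parvb (-2.04 ± 0.28 SE). Of 14 tested basement membrane partners (15 listed), 1 was called higher and 8 lower (median -1.65). The lower were led by Nid1, which links laminin to collagen IV (-2.71 ± 0.20 SE), Hspg2 for perlecan (-2.19 ± 0.17 SE) and Col18a1 (-2.16 ± 0.19 SE), and Col4a5, a collagen IV chain, was the higher (1.58 ± 0.21 SE). Of 12 tested other integrin ligands (13 listed), 4 were called in each direction (median -0.04). Spp1, osteopontin and a ligand of αvβ3, rose by 5.11 ± 0.59 SE on the log2 scale, Npnt, nephronectin and the ligand of α8β1, by 3.77 ± 0.22 SE, and Cdh1, the E-cadherin that αEβ7 binds, by 1.33 ± 0.19 SE. Vtn, vitronectin (-2.73 ± 0.71 SE), Icam2 (-2.44 ± 0.61 SE) and Fn1, fibronectin (-1.77 ± 0.23 SE), led those that fell.

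Some of these genes share exon sequence with a neighbor. Itga7, Itgb4, Itga8, Itgav, Itga4 and Lamc3 overlap a gene on the opposite strand (Mettl7b, B230344G16Rik, E030013I19Rik, Gm13684, Cerkl and Gm13441). The libraries marked strand, but the strand setting of the counting is not given in the sources used here, so reads of such pairs may be shared or dropped.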

How the data were processed

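RNA-seq of 24 mouse mammary samples (3 PyMT and 3 FVB mice at weeks 6, 8, 10 and 12) was used. Total RNA was depleted of ribosomal RNA and made into directional libraries. The authors trimmed adapters, used GSNAP to align to mm9 and HTSeq to count, and deposited the raw counts with no normalization. Samples were grouped by the genotype and week in their labels. The 35 genes and all gene lists were chosen with earlier results of these data known.

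Counts were analysed with R 4.3.3, edgeR 4.0.16, DESeq2 1.42.0, Python 3.11.15, pandas 2.3.3 and matplotlib 3.10.9. Of 37991 genes, 37205 had a GENCODE M1 model, and 14918 were tested, those with 1 CPM or more in 12 samples or more. TMM scaling, edgeR's quasi-likelihood test and Benjamini-Hochberg adjustment over all tested genes were used, per week and over all weeks with week as a factor. Calls needed an adjusted p under 0.05 and a fold above 2. Contrasts between weeks used 8 group means, and changes of a difference needed no fold. The standard error is the log2 fold change over the square root of F. Normalized counts divide by DESeq2's size factors, and levels per kilobase divide by the summed exon length. The genes named were all 35, up to 3 called genes a direction from each pathway list, and each marker list by its counts and sums. The fits were tested on simulated counts. Depth was 6969375 to 13516601 counts a sample, and columns of 1 group differed by a chi-square of at least 19.6 per gene, so none was a copy. Alternatives changed the scaling, the filter, the test, the replicate block and the libraries, and leaving out the muscle-rich FVB libraries was added after seeing the data. The litter of each mouse was not analysed here.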

Additional observations from a re-analysis of the deposited data

How the results depend on the processing

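Of the 19 genes called over all weeks, 652 of 665 values under alternatives stayed called in the same direction, 13 lost the call and 0 turned. Of 53 calls at single weeks, 795 of 890 stayed, 95 were lost and 0 turned. Depth and the 13 libraries with a repeating count limit the low genes (Itgb7, Itgae, Itgal, Itga10, Itga2b), and 3 samples a group limit single weeks. The cause of the changes below was not tested.

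A test against a fold of 2 (glmTreat) left 0 genes higher and 3 lower at week 6, 0 and 4 at week 8, 0 higher at week 10, 1 and 7 at week 12, and 1 higher over all weeks. Over all weeks Itgb4 stayed higher, and Itga8 (adjusted p = 0.18), Itgb3 (0.088), Itgax (0.16) and Lamb3 (0.29) lost the call. Of the genes called lower, Itga4 (0.21), Itga9 (0.55), Itgb7 (0.10) and Lama5 (0.057) lost it over all weeks. At week 10 Itga11 (0.16), Lama3 (0.17) and Lama4 (0.42) lost it. At week 8, 5 genes were called higher with no filter, with DESeq2, and with edgeR's likelihood ratio and exact tests, and 4 in a fit of all 24 samples. At week 10 the count higher was 5 with no filter, with both edgeR tests and in the fit of all samples, and 6 with DESeq2. At week 12, library size scaling gave 7 higher (13.77% of all genes tested). Without the muscle-rich FVB libraries, 5 were higher at week 10 (6.42%). At week 6, leaving them out kept 1 FVB sample, assumed to vary like the PyMT samples. Itgb4 then had a log2 fold change of 0.99. PyMT week 12 against week 6 had 1 higher with DESeq2 and with the likelihood ratio test, and 1 lower with DESeq2. Shares over all genes are not given for the other counts here. Those counts therefore do not show whether a setting moved these genes more than the rest.

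Leaving out 1 library in turn gave 0 to 2 higher and 8 to 11 lower at week 6, 1 to 3 and 5 to 10 at week 8, 1 to 5 and 7 to 11 at week 10, 3 to 6 and 11 to 14 at week 12, and 5 and 14 to 15 over all weeks. At week 6 the count higher was 0 without PyMT replicate 3 and 1 without PyMT replicate 1 or any FVB replicate. At week 8 it was 1 without PyMT replicate 1 or 3 or FVB replicate 2, and at week 10 it was 1 without PyMT replicate 1 or 3. Leaving out a library can change the calls of all genes, and their shares are not given for these fits. A count that moved is therefore not shown to be particular to these genes.

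The 16 genes not called over all weeks were called in 14 of 560 values (Itga2b in 9, Itgb6 and Itgb8 in 2 each, Lamb2 in 1) and turned sign in 17. Itga3 was at 0.24 with library size scaling, 0.011 with no filter, 0.010 with a weaker filter, 0.24 in libraries without a repeating count, and -0.098 to 0.066 with 1 library left out. Library size scaling put Itgb5 at 0.042 and Itgal at 0.056, and libraries without a repeating count put Itgb2 at -0.66.

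Same-numbered PyMT and FVB samples had deviations that correlated at -0.041 to 0.20, over 0.1 in 4 of 12 pairs (replicate 3 at weeks 6, 8 and 10 and replicate 1 at week 10), and at weeks 8 and 10 every sample correlated best with its own number. That is a hint from the data and not the design, since the labels tie no number to a litter or day and at no week did every pair pass 0.1, so the block stayed an alternative. With the replicate block, 5 genes were called higher and 14 lower over all weeks (8.96% and 16.38% of all genes tested). The counts were 2 and 10 at week 6 (2.81% and 5.11%) and 3 and 10 at week 8 (3.18% and 5.96%). They were 3 and 8 at week 10 (4.86% and 8.63%) and 4 and 11 at week 12 (7.21% and 11.47%).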
